A study of Rattus norvegicus with 24 samples.

Results

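The genes described here encode the subunits of the mitochondrial oxidative phosphorylation system. They were taken by symbol from the arrays' gene annotation: probe sets with exactly 1 gene symbol, where that symbol began with Nduf, Uqcr, Cox4, Cox5, Cox6, Cox7, Cox8 or Atp5 or was Sdha, Sdhb, Sdhc, Sdhd or Cycs. This gave 94 probe sets for 81 genes, among 14506 gene symbols and 29214 probe sets in all, and each gene was represented by the probe set with the highest mean intensity over the 24 arrays. By complex, 33 genes belonged to complex I, 4 to complex II, 7 to complex III, 17 to complex IV and 15 to complex V. The others were 3 complex I assembly factors (Ndufaf1, Ndufaf3 and Ndufaf4), cytochrome c (Cycs) and the ATP synthase inhibitor Atp5if1. Ndufa4 is counted under complex IV, where its protein is found. The symbols Cox6c-ps1 and Ndufs6-ps1 carry a suffix used for pseudogenes. Cox6b1, Cox7a1, Cox7b2, Ndufa4l2 and the subunits encoded in the mitochondrial genome were not analysed here.

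Male Fischer rats, about 8 weeks old at the start, inhaled 2 ppm formaldehyde through the nose only for 6 hours a day over 7 or 28 days. The vapour was made from paraformaldehyde that carried stable isotopes, and room-air rats sat in the same kind of tubes without formaldehyde for as long. RNA came from tissue of the maxilloturbinate, a bony scroll of the anterior nasal cavity, labelled as nasal epithelial cells, and from white blood cells isolated from heart blood in cell preparation tubes. Tissue, day and exposure made 8 groups of 3 arrays. The labels do not say that the replicates came from separate animals, so p-values measure the spread between these samples, which may be technical.

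Oxidative phosphorylation passes electrons from NADH (complex I) and succinate (complex II) through ubiquinone, complex III and cytochrome c to oxygen at complex IV. The proton gradient built up on the way drives complex V, the ATP synthase. Airway epithelium uses this ATP for ciliary beating and ion transport. Several complex IV subunits exist as paralogous isoforms with different tissue distributions, such as Cox4i1, which is ubiquitous, and Cox4i2, known from lung and from vascular and oxygen-sensing cells.

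Promoters are shown for the 4 genes whose response at 28 days was called different between tissues, Atp5mg, Ndufa4, Ndufs4 and Cox7a2. The Cox8b promoter is shown too, for an isoform whose mean passed the filter in nasal tissue and not in white blood cells. Each is the 250 bases before the RefSeq gene start on GRCr8, read 5′ to 3′ on the gene's strand. Capitals mark a motif named in the next paragraph, on either strand.
Atp5mg (chr8:54130408-54130657, minus strand): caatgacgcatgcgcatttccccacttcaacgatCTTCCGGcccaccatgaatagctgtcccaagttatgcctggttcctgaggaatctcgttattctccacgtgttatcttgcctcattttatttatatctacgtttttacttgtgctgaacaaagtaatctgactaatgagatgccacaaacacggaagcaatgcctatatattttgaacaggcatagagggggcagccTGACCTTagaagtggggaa
Ndufa4 (chr4:40975560-40975809, minus strand): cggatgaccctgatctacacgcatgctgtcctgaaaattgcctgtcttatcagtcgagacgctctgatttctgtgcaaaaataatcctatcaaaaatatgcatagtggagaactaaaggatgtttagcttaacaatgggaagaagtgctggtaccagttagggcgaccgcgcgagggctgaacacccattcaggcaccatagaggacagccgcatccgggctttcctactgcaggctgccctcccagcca
Ndufs4 (chr2:47794915-47795164, minus strand): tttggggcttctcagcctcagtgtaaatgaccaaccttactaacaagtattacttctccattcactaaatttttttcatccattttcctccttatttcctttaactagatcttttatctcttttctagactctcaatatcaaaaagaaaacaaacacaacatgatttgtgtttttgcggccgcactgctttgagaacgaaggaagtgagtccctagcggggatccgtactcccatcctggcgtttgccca
Cox7a2 (chr8:89601150-89601399, minus strand): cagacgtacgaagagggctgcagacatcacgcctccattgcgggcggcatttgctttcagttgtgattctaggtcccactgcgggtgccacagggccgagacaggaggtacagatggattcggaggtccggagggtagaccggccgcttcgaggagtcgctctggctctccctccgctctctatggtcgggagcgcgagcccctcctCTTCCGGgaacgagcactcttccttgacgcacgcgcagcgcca
Cox8b (chr1:205408274-205408523, minus strand): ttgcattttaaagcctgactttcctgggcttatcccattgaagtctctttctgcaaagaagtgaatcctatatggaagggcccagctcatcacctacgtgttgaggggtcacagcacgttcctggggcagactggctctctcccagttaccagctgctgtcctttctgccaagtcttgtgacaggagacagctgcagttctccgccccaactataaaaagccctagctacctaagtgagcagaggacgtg

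Sequence motifs were searched on both strands in windows of 300 bases (250 before and 50 after the gene start). Of the 81 genes, 71 had a window in the RefSeq table, which held 27457 genes. The motif of NRF1, a regulator of nuclear genes for mitochondrial proteins, was searched as GCGCA, any base, then GCGC, and lay in 14 of 71 windows (19.7%), against 4.71% of all genes. The ETS motif bound by GABPA, searched as CCGGAAG, lay in 21 windows (29.6%), against 9.22%. The estrogen-related receptor motif, searched as AAGGTCA, lay in 10 windows (14.1%), against 4.37%. The YY1 motif, searched as AAGATGGC, lay in 13 windows (18.3%), against 3.44%. At least 1 of the 4 was found in 42 of 71 windows (59.2%) and in 19.5% of all genes. The ETS and YY1 motifs can share letters, and a run with both counts for each. Atp5mg held an ETS match and an estrogen-related receptor match, Cox7a2 held an ETS match, and Ndufs4 held a YY1 match that begins at base 5 after the start, outside the printed stretch. These letters were not in the windows of Ndufa4 and Cox8b. A match is a description of the sequence and no evidence of binding.

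Values are log2 of the authors' normalised intensities, and a difference is formaldehyde minus room air on that scale unless stated otherwise. A gene was tested in a tissue where its mean reached percentile 25 of all probe sets there, a log2 intensity of 6.61 in nasal tissue and 5.96 in white blood cells. In nasal tissue 80 of the 81 genes passed, with Cox8c below the filter. In white blood cells 79 passed, with Cox4i2 and Cox8b below it. A call is an adjusted p under 0.05 from limma, adjusted over all probe sets kept. In nasal tissue the array medians were 8.25 to 8.28 at 7 days and 7.35 to 7.42 at 28 days, so no level is compared between days. Near-identical gene copies and processed pseudogenes of these genes can add to a probe set's signal. Of the 12 genes with several probe sets, the probe sets differed in the response to exposure by up to 0.65, for Atp5mc3 in nasal tissue at 28 days. In the room-air comparison of tissues they differed by up to 0.60 at 7 days (Atp5mc3) and 0.91 at 28 days (Atp5pd).

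Tissue markers separated the samples as labelled. In room-air rats at 7 days, 12 of 12 epithelial markers were higher in nasal tissue, and 12 of 12 pan-leukocyte markers were lower there than in white blood cells. The nasal samples also carried RNA of olfactory neurons, with 19 of 19 of their markers higher than in blood, and the blood samples carried red cell and platelet RNA, with 14 of 14 and 8 of 8 of those markers lower in nose. No probe set had a value of 0, and the lowest was 3.39.

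The third room-air array of the 28-day nasal group stood apart. On it, 28 of the 81 genes lay at least 0.5 from their median on the other 5 nasal arrays of that day, 20 above and 8 below. On those other arrays the count was 1 to 5. Its interquartile range over all probe sets was 1.99, against 2.20 to 2.37 on the others. Atp5mg (9.96), Cox7a2 (12.43) and Uqcrq (10.91) were high on it, while Sdha (8.81) and Atp5pf (7.44) were low. Room-air replicate 1 of the same group had the lowest summed olfactory neuron markers, 3438 in intensity, against 17371 and 20914 on the other 2 room-air arrays and 21918 to 27703 on the formaldehyde arrays. For nasal tissue at 28 days, the counts of calls, the complex III median and the differences of several genes are given with and without these arrays.

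**Figure D1:**
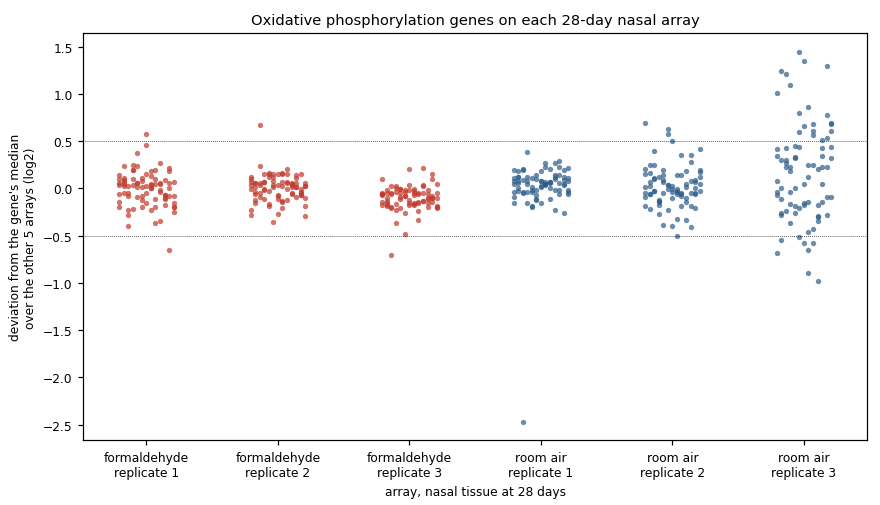
Deviation of each of the 81 genes (points) from its median on the other 5 arrays, in log2, for the 6 nasal arrays at 28 days, with formaldehyde arrays in red and room-air arrays in blue. Dotted lines mark 0.5 in either direction. Room-air replicate 3 has 28 genes beyond the lines, and the low point on room-air replicate 1 is Cox8b.

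In nasal tissue after 7 days of formaldehyde, 1 of the 80 oxidative phosphorylation genes tested differed from room-air rats. Cox4i2, the inducible isoform of the complex IV regulatory subunit, fell. It measured 7.40, 7.05 and 7.18 in formaldehyde rats, against 7.79, 7.41 and 7.63 in room-air rats. All formaldehyde arrays lay below all room-air arrays. The difference was -0.40 (SE 0.12, adjusted p = 0.041). The call was lost in 5 of 6 fits that each left out 1 array (lowest adjusted p of the 5, 0.054) and in the fit of the 2 groups alone (adjusted p = 0.058), and it remained without room-air replicate 2. Of all probe sets, 16.3% were called in this comparison, 8.43% higher and 7.84% lower, so the members' count lies below the background.

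The 80 genes had a median difference of -0.02, with 34 above 0, against -0.05 over all probe sets tested. At an unadjusted p under 0.05, 4 genes were higher and 2 lower, where 13.5% and 17.0% of all probe sets were. The groups did not overlap for 14 genes in the higher direction and 22 in the lower, against 20.8% and 32.4% of all probe sets. Cycs, the mobile electron carrier between complexes III and IV, measured 12.12, 11.98 and 11.99 in formaldehyde rats, against 11.75, 11.84 and 11.66 in room-air rats. These groups did not overlap, and the difference of 0.28 (SE 0.09) had an adjusted p of 0.059. The complex I assembly factor Ndufaf1 measured 8.20, 8.08 and 8.19 in formaldehyde rats, against 7.81, 7.92 and 7.78 in room-air rats. Its difference was 0.32 (SE 0.11, adjusted p = 0.064), again without overlap. The next smallest p belonged to Ndufa5 (0.21, adjusted p = 0.11), an accessory subunit of complex I, Atp5mc2 (-0.17, adjusted p = 0.15), a c-ring gene, and Sdhb (0.22, adjusted p = 0.16), the iron-sulfur subunit of complex II. The core subunits Ndufs1 (0.10), Sdha (-0.12), Uqcrc1 (-0.09), Cox4i1 (0.02) and Atp5f1b (-0.04) did not pass.

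Markers of several cell types moved in the same nasal samples. Endothelial markers were lower for 13 of 15 genes, with summed intensities of 6561 to 8676 in formaldehyde rats, against 11654 to 14302 in room-air rats. Pan-leukocyte markers were lower for 10 of 12, with sums of 8438 to 10032 in formaldehyde rats, against 12360 to 13680 in room-air rats. Olfactory neuron markers were higher for 8 of 19, with sums of 55744 to 69461 in formaldehyde rats, against 10881 to 29259 in room-air rats. Their part in the Cox4i2, Cycs and Ndufaf1 values was not tested, and in bulk samples fewer cells of a type and less RNA per cell cannot be told apart. Cox8b, the complex IV isoform known from muscle in rodents, measured 9.57, 9.29 and 8.92 in formaldehyde rats, against 7.57, 8.82 and 8.61 in room-air rats. The difference of 0.92 (SE 0.68) had an adjusted p of 0.41. Its SE was the widest of the 80 genes, and the lowest value fell on room-air replicate 1, which also had the lowest olfactory sum (10881). Skeletal muscle markers summed to 3475 there, and to 3524 and 3604 on room-air replicates 2 and 3.

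**Figure D2:**
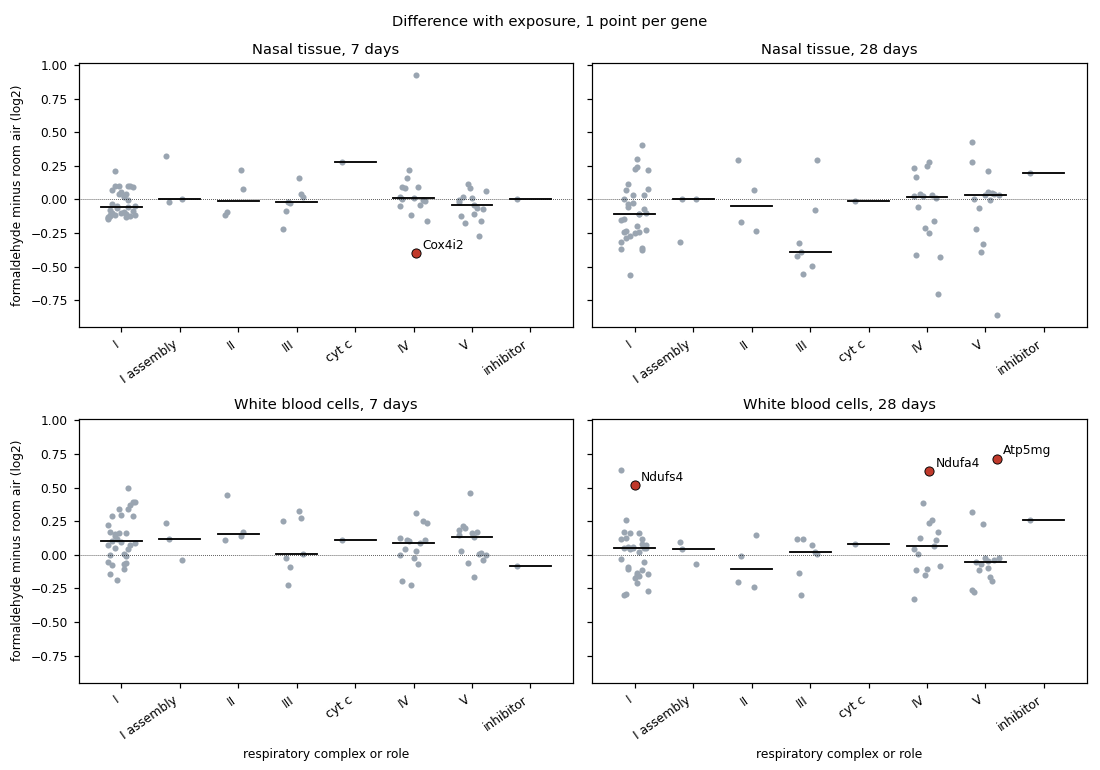
Difference between formaldehyde and room air (log2) for each oxidative phosphorylation gene, by complex or role, in nasal tissue (top) and white blood cells (bottom) at 7 days (left) and 28 days (right). Red points passed the threshold, grey points did not, and black lines are medians of a complex. The named points are Cox4i2 (-0.40) in nose at 7 days, and Atp5mg (0.72), Ndufa4 (0.62) and Ndufs4 (0.52) in white blood cells at 28 days.

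In nasal tissue after 28 days of formaldehyde, limma called 0 of the 80 genes, and 0.00456% of all probe sets. At an unadjusted p under 0.05, 4 genes were higher and 18 lower, where 7.17% and 8.27% of all probe sets were. The groups did not overlap for 0 genes in the higher direction and 8 in the lower, against 7.48% and 8.70% of all probe sets. The median difference was -0.05, against 0.01 over all probe sets, and the differences ran from -0.86 for Atp5mg to 0.43 for Atp5pf. Complex III had the lowest median, -0.39 over its 7 genes, while complexes IV and V had medians of 0.02 and 0.03. Without room-air replicate 3 the complex III median was -0.19, and without room-air replicate 1 it was -0.44. Uqcrc1, a core protein of complex III, measured 9.47, 9.51 and 9.44 in formaldehyde rats, against 9.62, 9.93 and 9.83 in room-air rats. The groups did not overlap, with a difference of -0.32 (SE 0.08, adjusted p = 0.13). Ndufs8, an iron-sulfur subunit of complex I, differed by -0.24 (SE 0.06, adjusted p = 0.14), and Ndufs5, an accessory subunit of complex I, by -0.32 (SE 0.09, adjusted p = 0.15). Ndufaf1 differed by -0.32 (SE 0.11, adjusted p = 0.20) and Cox7a2 by -0.70 (SE 0.23, adjusted p = 0.20). The core genes Ndufs1 (0.03), Sdha (0.29), Cycs (-0.01), Cox4i1 (0.03) and Atp5f1b (0.21) did not pass.

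Leaving out room-air replicate 1 gave 10 calls in nose at 28 days, and leaving out room-air replicate 3 gave 0. The 6 lower were Atp5mg, Cox7a2, Uqcrb, Ndufaf1, Uqcrc1 and Ndufb5, and the 4 higher were Atp5pf, Uqcrh, Cox7c and Atp5if1. Over all probe sets, the fits without 1 array called 0 to 1081 of 21910 in this comparison. Without replicate 3 the differences ran from -0.54 to 0.96, and at an unadjusted p under 0.05 1 gene was higher and 14 lower. Without that array Atp5mg differed by -0.48 and Cox7a2 by -0.35, Atp5pf by 0.17 and Sdha by -0.05. Uqcrc1 (-0.30) and Ndufs8 (-0.22) moved less. Atp5mg encodes subunit g of the ATP synthase membrane part, and it measured 8.62, 8.27 and 8.14 in formaldehyde rats, against 8.51, 9.14 and 9.96 in room-air rats. The groups overlapped, and the room-air values spread more than the difference of -0.86 (SE 0.28, adjusted p = 0.19).

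In white blood cells after 7 days of formaldehyde, limma called 0 of 79 genes, where 0.475% of all probe sets were called, 0.110% higher and 0.365% lower. At an unadjusted p under 0.05, 14 genes were higher and 1 lower, where 8.86% and 6.28% of all probe sets were. The median difference was 0.11, with 58 of 79 above 0, against 0.04 over all probe sets. In 24 genes every formaldehyde array lay above every room-air array, as it did for 19.5% of all probe sets. Of the 24, 15 belonged to complex I, which made up 33 of the 79 genes tested. In 3 genes every formaldehyde array lay below, against 10.4%. Ndufa6, an accessory subunit of complex I, measured 9.39, 9.33 and 9.24 in formaldehyde rats, against a mean of 8.95 ± 0.05 (SD, n = 3) in room-air rats. The groups were separate by more than their own ranges, with a difference of 0.37 (SE 0.08, adjusted p = 0.063). Sdhc, a membrane anchor of complex II, measured 11.09, 11.09 and 11.14 in formaldehyde rats, against 10.85, 10.42 and 10.71 in room-air rats. Its difference was 0.44 (SE 0.12, adjusted p = 0.12). Atp5mk, a small ATP synthase subunit (0.46, SE 0.12, adjusted p = 0.11), Ndufb6 (0.50, SE 0.16, adjusted p = 0.15) and Ndufab1 (0.39, SE 0.12, adjusted p = 0.16), complex I accessory subunits, did not overlap between groups either. Ndufa4 differed by 0.31 (SE 0.09, adjusted p = 0.14). The core genes Ndufs1 (0.34), Sdha (0.11), Uqcrc1 (-0.02), Cycs (0.11), Cox4i1 (0.00) and Atp5f1b (-0.16) did not pass. Sdhc and Ndufa6 were called when all 24 arrays entered the fit.

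In white blood cells after 28 days of formaldehyde, 3 of the 79 genes rose and limma called 0 lower, where 3.95% of all probe sets rose and 1.31% fell (5.27% in all). At an unadjusted p under 0.05 the members numbered 9 higher and 4 lower, against 8.87% and 9.07% of all probe sets. The groups did not overlap for 8 genes in the higher direction and 3 in the lower, against 8.77% and 9.03%. The share of members called is close to the background. Ndufa4, a subunit associated with complex IV, measured 10.86, 11.16 and 11.04 in formaldehyde rats, against 10.39, 10.35 and 10.45 in room-air rats. The difference was 0.62 (SE 0.09, adjusted p = 0.0045). Ndufs4, an accessory subunit of complex I whose loss causes Leigh syndrome in humans, measured 11.34, 11.63 and 11.45 in formaldehyde rats, against 10.89, 11.01 and 10.96 in room-air rats. The difference was 0.52 (SE 0.10, adjusted p = 0.0095). Atp5mg measured 8.88, 9.01 and 8.65 in formaldehyde rats, against 8.02, 8.21 and 8.16 in room-air rats. The difference was 0.72 (SE 0.14, adjusted p = 0.015). In all 3 genes the lowest formaldehyde array lay above the highest room-air array.

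Over all 79 genes the median difference in blood at 28 days was 0.02, against -0.02 over all probe sets. Ndufa1 differed by 0.63, as much as the called Ndufa4, with a wider spread (SE 0.25, adjusted p = 0.19). It measured 9.28, 10.06 and 9.13 in formaldehyde rats, against 9.06, 8.37 and 9.14 in room-air rats, and the groups overlapped. Cox7a2 differed by 0.39 (SE 0.15, adjusted p = 0.18) without overlap. Atp5f1c, the central stalk subunit of the ATP synthase, differed by -0.28 (SE 0.08, adjusted p = 0.091). The Rieske protein gene Uqcrfs1 of complex III differed by -0.30 (SE 0.10, adjusted p = 0.13), and Ndufs7, a complex I iron-sulfur subunit, by -0.29 (SE 0.10, adjusted p = 0.14). The core genes Ndufs1 (0.05), Sdha (-0.20), Uqcrc1 (-0.13), Cycs (0.08), Cox4i1 (-0.33) and Atp5f1b (-0.04) did not pass. In the fit of the 2 groups alone the count was 0 (adjusted p of 0.072 for Ndufa4 and Atp5mg and 0.094 for Ndufs4). Without room-air replicate 2 it was 5. Over all probe sets, the fits without 1 array called 623 to 1258 of 21910. The Atp5mg call was lost without formaldehyde replicate 2 (adjusted p = 0.058), without room-air replicate 1 (adjusted p = 0.052) and with all 24 arrays in the fit (adjusted p = 0.073).

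Blood cell markers moved in the same samples. Of 11 natural killer cell markers 8 were higher at 28 days, with summed intensities of 22843 to 30257 in formaldehyde rats, against 15759 to 18189 in room-air rats. Of 8 platelet markers 5 were higher, with sums of 41528 to 49467 in formaldehyde rats, against 29950 to 35835 in room-air rats. Of 12 neutrophil markers 1 was lower, and their sum was 2027 to 4083 in formaldehyde rats, against 5124 to 16565 in room-air rats, highest on room-air replicate 2. At 7 days, 3 of 11 natural killer markers were higher. The part of these cells in the Ndufa4, Ndufs4 and Atp5mg values was not tested.

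Among other mitochondrial genes in white blood cells at 28 days, the counts of calls were as follows, where 3.95% of all probe sets rose and 1.31% fell. Of 27 genes for electron entry, coenzyme Q and nucleotide carriers, 2 rose, the coenzyme Q chaperone Coq10b (0.69, SE 0.11, adjusted p = 0.0046) and the outer membrane channel Vdac3 (0.59, SE 0.11, adjusted p = 0.0083). Of 31 genes for import, cristae and dynamics, 3 rose, the inner membrane fusion GTPase Opa1 (0.46, SE 0.09, adjusted p = 0.011), the cristae scaffold gene Chchd3 (0.46, SE 0.10, adjusted p = 0.022) and the chaperonin Hspd1 (0.43, SE 0.11, adjusted p = 0.042). Of 68 mitochondrial ribosomal protein genes 1 rose. Of 35 assembly factors 1 rose and 1 fell, and of 21 tricarboxylic acid cycle and pyruvate dehydrogenase genes 1 fell. The medians of these 5 lists lay between -0.05 and -0.01.

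**Figure D3:**
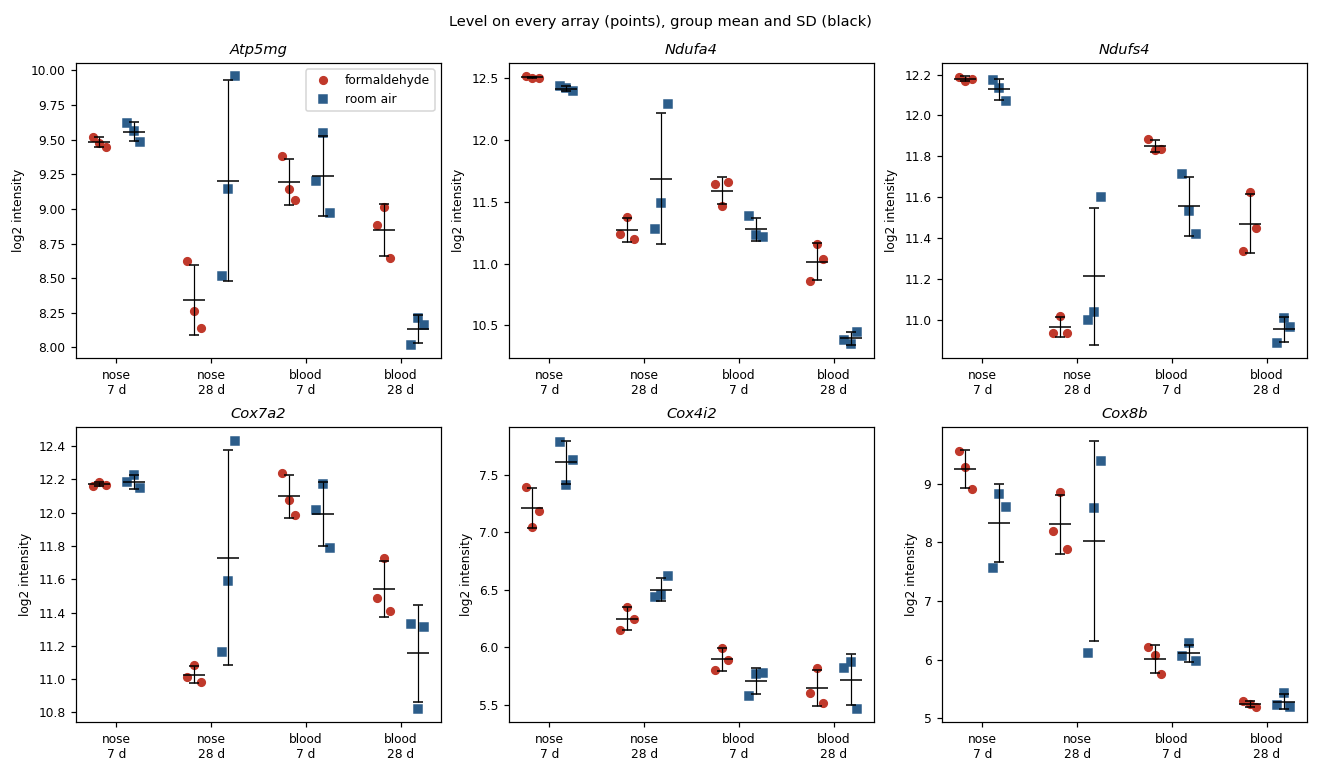
Log2 intensity of Atp5mg, Ndufa4, Ndufs4, Cox7a2, Cox4i2 and Cox8b on every array (red circles for formaldehyde, blue squares for room air), with black marks for the group mean and SD of 3 arrays. The formaldehyde points of Atp5mg, Ndufa4 and Ndufs4 lie above all room-air points in blood at 28 days, and the wide room-air spread in nose at 28 days is that of replicates 1 and 3.

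The 28-day response minus the 7-day response was tested within each tissue, and limma called 0 of 80 genes in nasal tissue, where 0.100% of all probe sets were called. At an unadjusted p under 0.05, 0 were higher and 6 lower, against 7.51% and 6.07% of all probe sets. The smallest p belonged to Ndufaf1, with a difference between days of -0.64 (SE 0.15, adjusted p = 0.14). Uqcrb (-0.65), Sdhd (-0.31), Ndufb5 (-0.31), Ndufb6 (-0.48) and Cycs (-0.29) came next, with adjusted p from 0.33 to 0.36. Without 28-day room-air replicate 1 the count was 11. Over all probe sets, the fits without 1 array called 1 to 2648 of 21910 for this difference. In white blood cells limma called 0 of 79 genes and 0 of all probe sets (0%), with 3 higher and 6 lower at an unadjusted p under 0.05, against 5.80% and 5.74% of all probe sets. Ndufa6 differed between days by -0.42 (SE 0.11, adjusted p = 0.18) and Atp5mg by 0.76 (SE 0.20, adjusted p = 0.18). Ndufs7 (-0.46), Ndufab1 (-0.54), Atp5f1a (-0.45) and Sdhc (-0.45) came next, with adjusted p from 0.24 to 0.36. For Atp5mg the response in blood was -0.04 at 7 days and 0.72 at 28 days. For Ndufa6 it was 0.37 at 7 days and -0.05 at 28 days. These differences missed the threshold, which does not show that the responses were alike.

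The response in nasal tissue minus the response in white blood cells was tested for the 78 genes kept in both tissues. At 7 days 2 genes were lower and 0 higher, where 10.8% of all probe sets were called (5.65% lower and 5.10% higher). Without adjustment, 6 members were lower at p under 0.05 and 0 higher, against 16.8% and 10.2% of all probe sets. Ndufa6 responded by -0.13 in nasal tissue and 0.37 in white blood cells, a difference of -0.50 (SE 0.11, adjusted p = 0.0099). Sdhc responded by -0.10 in nasal tissue and 0.44 in white blood cells, a difference of -0.54 (SE 0.16, adjusted p = 0.035). Ndufa8 (-0.37, adjusted p = 0.062), Ndufab1 (-0.44, adjusted p = 0.089), Ndufs8 (-0.30, adjusted p = 0.096) and Ndufs5 (-0.36, adjusted p = 0.11), all of complex I, came next. The Ndufa6 call held in all the alternatives run, including each of the 12 fits without 1 array. The Sdhc call was lost in 9 of those 12 fits, and with a replicate block (adjusted p = 0.058).

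At 28 days 4 genes were lower and 0 higher in this comparison, where 5.10% of all probe sets were called (3.11% lower and 2.00% higher). Without adjustment, 19 members were lower at p under 0.05 and 10 higher, where 9.58% and 11.7% of all probe sets were. Atp5mg responded by -0.86 in nasal tissue and 0.72 in white blood cells, a difference of -1.58 (SE 0.32, adjusted p = 0.0081). Ndufa4 responded by -0.42 in nasal tissue and 0.62 in white blood cells, a difference of -1.04 (SE 0.22, adjusted p = 0.011). Ndufs4 responded by -0.25 in nasal tissue and 0.52 in white blood cells, a difference of -0.77 (SE 0.17, adjusted p = 0.012). Cox7a2, a small complex IV subunit, responded by -0.70 in nasal tissue and 0.39 in white blood cells, a difference of -1.09 (SE 0.29, adjusted p = 0.032).

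The nasal side of these 4 differences leaned on room-air replicate 3. Ndufa4 measured 11.24, 11.38 and 11.20 in nasal tissue of formaldehyde rats, against 11.28, 11.49 and 12.29 in room-air rats. Ndufs4 measured 10.94, 11.02 and 10.94 in formaldehyde rats, against 11.00, 11.04 and 11.60 in room-air rats. Cox7a2 measured 11.01, 11.09 and 10.99 in formaldehyde rats, against 11.16, 11.59 and 12.43 in room-air rats. In each gene the highest room-air value was that of replicate 3. Without that array all 4 were still called, at -1.20 for Atp5mg, -0.74 for Cox7a2, -0.74 for Ndufa4 and -0.57 for Ndufs4. The Cox7a2 call was lost in 5 of the 12 fits that each left out 1 array (adjusted p from 0.053 to 0.075), and the other 3 calls in none of them. Ndufa1 had a difference of -0.78, beyond that of Ndufs4, with a wider spread (SE 0.32, adjusted p = 0.16). In a fit of the 28-day groups alone none of the 4 passed (adjusted p from 0.12 to 0.22). Without nasal room-air replicate 1 the count was 20, and without nasal room-air replicate 2 it was 7. Over all probe sets, the fits without 1 array called 518 to 2567 of 20096.

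**Figure D4:**
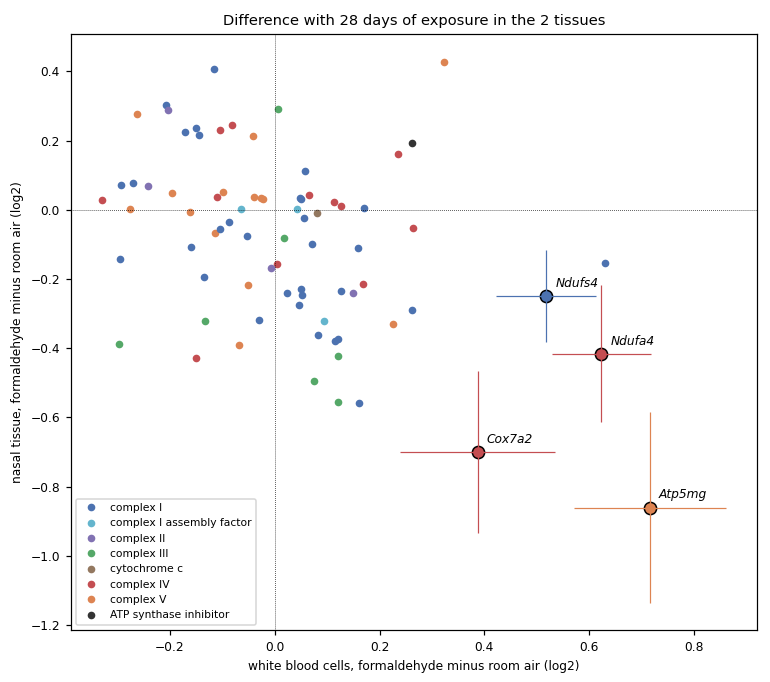
Difference between formaldehyde and room air at 28 days (log2) in nasal tissue (vertical) against white blood cells (horizontal), 1 point per gene, coloured by complex. The outlined and named points, Atp5mg, Ndufa4, Ndufs4 and Cox7a2, differed between tissues in the test of that difference, and their bars are 1 SE.

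Without formaldehyde, most oxidative phosphorylation genes measured higher in nasal tissue than in white blood cells. At 7 days 66 of 81 were higher and 5 lower, where 59.1% of all probe sets were higher and 15.9% lower (74.9% in all). At 28 days 58 were higher and 5 lower, where 47.6% of all probe sets were higher and 24.8% lower (72.3% in all). Among these, Cox4i2 and Cox8b entered the test only through nasal tissue and Cox8c only through white blood cells, each the tissue where it was higher. The deposited values put the nasal arrays on a higher scale overall. The median difference of the members, nose minus blood, was 0.87 at 7 days, against 0.43 for all probe sets, and 0.66 at 28 days, against 0.23. Centring each array on its own median moved all probe sets down by 0.81 at 7 days and 0.52 at 28 days, and the members then counted 25 higher and 21 lower at 7 days, and 33 higher and 22 lower at 28 days. Under quantile normalization, which moved all probe sets down by 0.60 and 0.39, they counted 54 higher and 9 lower at 7 days, and 60 higher and 7 lower at 28 days. The members' median lay above that of all probe sets by 0.45 at 7 days and 0.44 at 28 days as deposited. Centring shifts every probe set of an array alike, so it cannot change this gap. With quantile normalization the gap was 0.75 and 0.76.

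In complex I, 31 of 33 genes were higher in nasal tissue at 7 days and 27 of 33 at 28 days. Of all probe sets, 59.1% and 47.6% were. The complex I medians were 1.01 and 0.98, against 0.43 and 0.23 over all probe sets. Ndufs5 had the largest difference of complex I at 7 days. It measured 10.16, 10.22 and 10.04 in nasal tissue, against 8.49, 8.23 and 8.33 in white blood cells of 7-day room-air rats. The difference was 1.79 (SE 0.10, adjusted p = 1.2e-12). Ndufb4, an accessory subunit of the membrane arm, differed by 1.72 at 7 days (SE 0.10, adjusted p = 3.7e-12) and 1.71 at 28 days (SE 0.10, adjusted p = 6.3e-12). Ndufs3, in the matrix arm, differed by 1.71 and 1.41, the accessory subunit gene Ndufb6 by 1.59 and 1.27, and Ndufa2 by 1.16 and 1.44. The core gene Ndufs1 differed by 1.05 and 0.98. With median centring its 7-day difference was 0.24, without a call (adjusted p = 0.10). Ndufa1 was the complex I gene that went the other way, with 9.39, 9.29 and 9.21 in nasal tissue, against 9.91, 10.37 and 9.80 in white blood cells at 7 days. Its difference was -0.73 (SE 0.23, adjusted p = 0.0065) at 7 days and -0.25 (adjusted p = 0.33) at 28 days, when Ndufa10 (-0.26) was the lowest without a call. The assembly factor Ndufaf1 differed by 1.46 and 1.55.

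All 4 complex II genes were higher in nasal tissue at both days as deposited, where 59.1% and 47.6% of all probe sets were. Sdhc led at 1.33 (SE 0.11) and 0.95 (SE 0.11). Sdha differed by 1.15 and 0.48, and its call at 28 days was lost in 4 of 6 fits without 1 array (0.21 to 0.82). With median centring the Sdha difference was 0.34 at 7 days (adjusted p = 0.12) and -0.042 at 28 days, neither called. Of the 7 complex III genes 6 were higher at both days, against 59.1% and 47.6% of all probe sets. Uqcrb, which binds ubiquinone in complex III, measured 12.28, 12.43 and 12.29 in nasal tissue, against 10.59, 10.56 and 10.65 in white blood cells at 7 days. Its difference was 1.73 at 7 days and 1.81 at 28 days (SE 0.17 each). Uqcrh, the hinge protein, was the exception, at -0.08 (adjusted p = 0.51) and -0.64 (SE 0.11, adjusted p = 2.4e-05). Uqcrc1 differed by 0.89 and 1.01, and Uqcr11, a small subunit, by 1.54 and 1.45. Cycs differed by 0.88 and 0.92. With median centring the 7-day differences were 0.07 for Uqcrc1 and 0.07 for Cycs, neither called (adjusted p = 0.57 and 0.61). In complex V, 13 of 15 genes were higher at 7 days and 8 of 15 at 28 days, against 59.1% and 47.6% of all probe sets. The complex V medians were 0.55 and 0.26, against 0.43 and 0.23 over all probe sets, so at 28 days they were close. The catalytic subunit gene Atp5f1b did not pass at either day (0.18 and -0.17), while its partner Atp5f1a differed by 1.42 (SE 0.14) at 7 days and 0.66 (SE 0.14) at 28 days. The extremes of complex V at 28 days were Atp5mg at 1.07 (SE 0.23) and Atp5pf at -0.21 (adjusted p = 0.31), the genes that were high and low on nasal room-air replicate 3. The 3 genes of the identical c-ring subunit differed by 1.02 (Atp5mc1), 0.55 (Atp5mc2) and 1.12 (Atp5mc3) at 7 days, and by 0.72, 0.25 (adjusted p = 0.095) and 0.84 at 28 days. The other Atp5mc3 probe set differed by 0.52 at 7 days and 0.99 at 28 days. For Atp5pd at 28 days the other probe set was lower in nasal tissue, at -0.69 (adjusted p = 1.5e-06), against 0.21 for the one used.

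Atp5if1, the peptide inhibitor of ATP hydrolysis by the synthase, showed the largest difference in the opposite direction. It measured 11.81, 11.77 and 11.78 in nasal tissue, against 12.69, 12.92 and 12.67 in white blood cells at 7 days. At 28 days it measured 10.89, 10.49 and 10.48 in nasal tissue, against 12.00, 11.72 and 12.06 in white blood cells. The groups were well apart at both days, with differences of -0.97 (SE 0.11, adjusted p = 9.8e-08) and -1.31 (SE 0.11, adjusted p = 1.2e-09). In zebrafish Atp5if1 is known to be needed for haem synthesis in developing red cells. All 14 erythroid markers were higher in the blood samples. Their part in the Atp5if1 value was not tested.

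Complex IV genes went in both directions. Of the 17 genes, 8 were higher in nasal tissue and 3 lower at 7 days, against 59.1% and 15.9% of all probe sets. At 28 days 9 were higher and 3 lower, against 47.6% and 24.8%. The complex IV medians were 0.41 and 0.45, against 0.43 and 0.23 over all probe sets. The 3 lower genes were the same at both days, namely Cox5a (-0.37 and -0.64), Cox7a2l (-0.32 and -0.22) and Cox8c (-0.47 and -0.27). Cox8c lay below the filter in nasal tissue and was kept for its blood level, so its difference is a description. The higher genes include Cox4i2 and Cox8b, which were kept for their nasal level. In fits without 1 array the Cox7a2l call at 28 days was lost in 5 of 6 (-0.35 to -0.10), the Cox8c call at 28 days in 4 of 6 (-0.36 to -0.17) and the Cox5a call at 7 days in 3 of 6 (-0.39 to -0.33). The ubiquitous Cox4i1 measured 11.26, 11.25 and 11.21 in nasal tissue, against 10.83, 11.11 and 10.75 in white blood cells at 7 days. Its difference of 0.34 (SE 0.16) had an adjusted p of 0.066, and at 28 days it was 0.39 (SE 0.16, adjusted p = 0.037), a call lost in 2 of 6 fits without 1 array. Its paralogue Cox4i2 measured 7.79, 7.41 and 7.63 in nasal tissue, against 5.58, 5.77 and 5.78 in white blood cells at 7 days, where it lay below the filter. The means lay 1.90 apart at 7 days and 0.78 apart at 28 days, given as a description because the gene was kept for its nasal level. Endothelial markers were higher in nasal tissue for 14 of 15 at 7 days, and their part in the Cox4i2 level was not tested.

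Cox8b was likewise kept for its nasal level and is described without a test. In nasal tissue of room-air rats it measured 7.57, 8.82 and 8.61, against 6.06, 6.28 and 5.98 in white blood cells at 7 days. At 28 days it measured 6.12, 8.59 and 9.39 in nasal tissue, against 5.23, 5.43 and 5.19 in white blood cells. Nasal replicate 1 was the lowest at each day and still above the blood arrays. The means lay 2.23 apart at 7 days and 2.75 at 28 days. The liver-type paralogue Cox8a measured 12.64, 12.61 and 12.59 in nasal tissue, against 12.57, 12.62 and 12.26 in white blood cells at 7 days, and did not pass at either day (0.13 and -0.14). Likewise Cox6a1, ubiquitous, differed by -0.17 and -0.31, and Cox6a2, the isoform of heart and skeletal muscle, by 0.14 and 0.25, without a call. Cox6b2, an isoform known from testis, differed by 1.11 (SE 0.09) and 0.75 (SE 0.09), and Ndufa4 by 1.14 and 1.29 (SE 0.16 each). Cox7a2 differed by 0.19 (adjusted p = 0.40) and 0.57 (SE 0.20, adjusted p = 0.017), the 28-day call lost in 2 of 6 fits without 1 array, and Cox7b by 0.42 and 0.51 without a call. Of 12 skeletal muscle markers tested, 8 were higher in nasal tissue and 2 lower at 7 days. These shares were near the 59.1% and 15.9% of all probe sets.

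**Figure D5:**
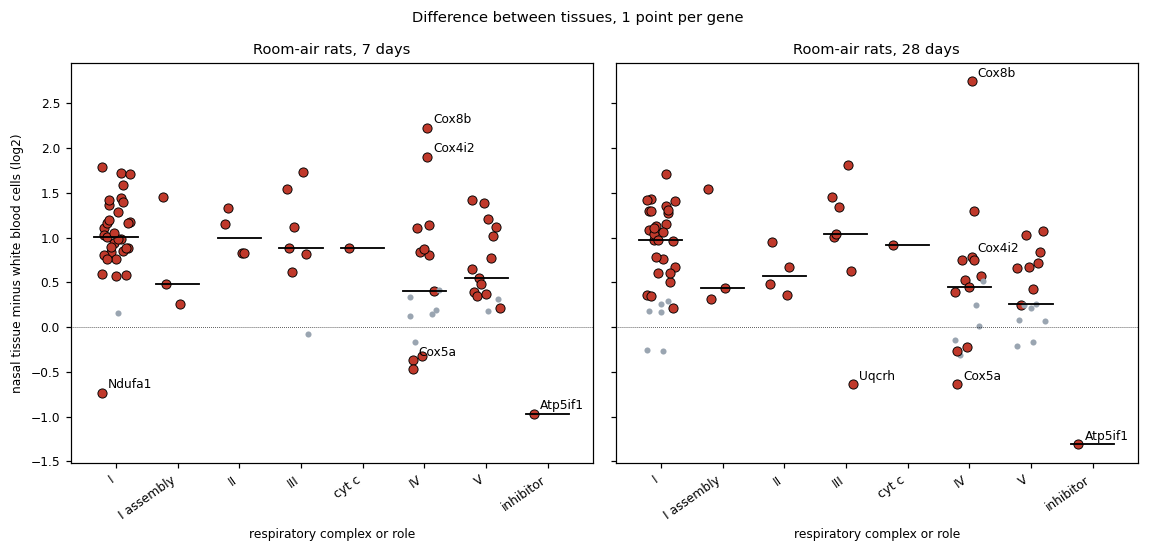
Difference between nasal tissue and white blood cells of room-air rats (log2) at 7 days (left) and 28 days (right), 1 point per gene by complex or role, with red points past the threshold, grey points not past it and black lines at the median of a complex. Complex I genes center near 1.01 and 0.98, against medians of 0.43 and 0.23 over all probe sets. Cox8b and Atp5if1 stand at opposite ends. Cox4i2 and Cox8b were kept only for their nasal level and Cox8c only for its blood level. Their points are a description, whatever the colour.

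Other mitochondrial gene lists were compared between the tissues of room-air rats as deposited, where 59.1% of all probe sets were higher in nasal tissue at 7 days and 47.6% at 28 days. Tricarboxylic acid cycle and pyruvate dehydrogenase genes were higher for 20 of 21 at 7 days and 15 of 21 at 28 days, with medians of 0.99 and 0.48. Mitochondrial ribosomal protein genes were higher for 59 of 68 and 44 of 68 (medians 0.63 and 0.44), and assembly factors outside the Nduf names for 30 of 36 and 20 of 36. Genes for import, cristae and dynamics were higher for 23 of 31 and 16 of 31. Regulators of mitochondrial biogenesis were higher for 15 of 25 and lower for 4 at 7 days. The shares of the regulators at 7 days, and of the import genes and assembly factors at 28 days, were near those of all probe sets. Cytosolic ribosomal protein genes went the other way, lower in nasal tissue for 40 of 67 at 7 days and 52 of 67 at 28 days, where 15.9% and 24.8% of all probe sets were lower, with medians of -0.35 and -0.53.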

How the data were processed

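Total RNA of 24 samples was made into biotin-labelled cRNA and hybridised to Affymetrix arrays, 1 per sample. The authors deposited 1 normalised intensity per probe set and array, with linear values. Per the submitters' processing notes the software was Partek. How background was corrected and arrays were normalised, and on which genome build, is not given in the sources used here. Gene symbols came from the platform annotation, in which 15310 probe sets carried 1 symbol, 323 several and 13581 were not listed. All 81 members matched the RefSeq gene table.

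Log2 was taken of the deposited intensities, with no further normalization. Probe sets at or above percentile 25 of a tissue's means were kept (21910 per tissue, 20096 in both, 23724 in either). In R 4.3.3, limma 3.58.1 was fitted with 4 group means to the 12 arrays of a tissue, or with 8 to all 24 arrays for comparisons between tissues. Tests were two-sided with Benjamini-Hochberg adjustment over all probe sets kept, and the procedure was tested on simulated data. Precision rests on 3 arrays in each group, since intensities have no counting depth.

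The members, the gene lists and the rule for named genes were chosen with earlier results of these data known. Named genes were those called (up to 8 in each direction), those with the smallest p where under 4 were called, 1 core subunit per complex, and in the tissue comparison the extremes of each complex and the isoform sets. Uqcrq and Cox7c were named beyond that rule, after their values were seen. Other genes were given in comparisons where the rule did not name them. Among these are Ndufa1 and Cox7a2 in blood at 28 days, and Cox8b in nose at 7 days. Atp5pf in nose at 28 days and Ndufa1 in the nasal minus blood response at 28 days are others.

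Same-numbered formaldehyde and room-air arrays were compared by correlating their residuals, as a check of pairing. In nasal tissue at 28 days the 3 correlations were 0.13 to 0.19, each over 0.1, and in the other sets at least 1 was lower. The labels state no pairing. Alternatives were other filters, quantile normalization, median centring, another prior, a replicate block, other sets of arrays in the fit, the mean over a gene's probe sets, and each array left out. Promoter sequences are from RefSeq (GRCr8). Figures were drawn with matplotlib 3.10.9.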

Additional observations from a re-analysis of the deposited data

Results flagged for a closer look

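6 results are listed because the response to formaldehyde differed between tissues in the test of that difference itself (nasal response minus white blood cell response, limma over all 24 arrays). At 7 days these were Ndufa6 at -0.5 and Sdhc at -0.54. At 28 days they were Atp5mg at -1.58, Cox7a2 at -1.09, Ndufa4 at -1.04 and Ndufs4 at -0.77. Thus 2 of 78 genes were called at 7 days, where 10.8% of all probe sets were, and 4 of 78 at 28 days, where 5.10% were. In a limma fit of the 28-day groups alone none of the 4 passed (adjusted p from 0.12 to 0.22). Of the 4 genes at 28 days, all had their highest nasal room-air value on replicate 3, and all were called without it at smaller values (-1.20, -0.74, -0.74 and -0.57 in the same order). The Cox7a2 call was lost in 5 of 12 fits that each left out 1 array (highest adjusted p 0.075), and the Sdhc call in 9 of 12.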

How the results depend on the processing

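The counts of called oxidative phosphorylation genes depended on which arrays shared the estimate of spread. With only the groups compared in the fit, the count was 5 in nose at 7 days (none of them Cox4i2), 1 in blood at 7 days, 0 in blood at 28 days, and for the nasal minus blood response 11 at 7 days and 0 at 28 days. With all 24 arrays it was 2 in blood at 7 days. With a filter at the tissue median it was 0 in nose at 7 days, where Cox4i2 was not tested, and with quantile normalization 2. For the nasal minus blood response at 7 days it was 1 with median centring and 1 with the replicate block, and the block moved no other count by over 1.5 times. For room-air nose against blood at 7 days median centring gave 46, and the members' direction there follows the scaling. The counts of this paragraph stand without the share of all probe sets called in the same fits, and are no result about the members.

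Leaving out 1 array gave 0 to 1 calls in nose at 7 days, 0 to 10 in nose at 28 days, 0 to 0 in blood at 7 days and 2 to 5 in blood at 28 days. The difference between days gave 0 to 11 in nose and 0 to 0 in blood. The nasal minus blood response gave 1 to 3 at 7 days and 3 to 20 at 28 days, and room-air nose against blood 68 to 71 at 7 days and 57 to 65 at 28 days. The calls over all probe sets moved as well. They ran from 802 to 2658 in nose at 7 days and from 0 to 1081 at 28 days. In blood they ran from 2 to 115 and from 623 to 1258. The difference between days gave 1 to 2648 in nose, and the nasal minus blood response 822 to 2124 and 518 to 2567. Where a group fell to 2 arrays, the spread was pooled over the groups.

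In the room-air comparison of tissues 10 signs of named genes reversed with a call in the main or the alternative fit. Signs that changed without a call in either fit, and those of genes not named, were not counted. Median centring moved all probe sets down by 0.81 at 7 days and 0.52 at 28 days. At 7 days median centring gave -0.47 for Cox4i1, -0.64 for Atp5f1b, -0.67 for Cox6a2, -0.62 for Cox7a2, -0.68 for Cox8a and -0.26 for Atp5mc2, and quantile normalization gave -0.59 for Cox6a2. At 28 days median centring gave -0.042 for Sdha, -0.13 for Cox4i1 and -0.28 for Cox6a2. The direction of these genes follows the scaling of the arrays. With 3 arrays per group and no detection calls, small differences of dim probe sets could not be resolved.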

Other observations

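Glycolysis genes, the route to ATP that does not need the respiratory chain, were also measured. In nasal tissue at 7 days 3 of 22 rose, where 8.43% of all probe sets did: Eno2, the neuronal enolase (0.85, SE 0.17, adjusted p = 0.011), the aldolase Aldoc (1.09, SE 0.22, adjusted p = 0.011) and the glucose transporter Slc2a3 (0.95, SE 0.20, adjusted p = 0.014). Olfactory neuron markers rose in the same samples (8 of 19), and their part was not tested. In white blood cells at 28 days 3 of 22 rose and 1 fell, where 3.95% and 1.31% of all probe sets did, among them Pgk1 (0.46, SE 0.10, adjusted p = 0.021) and Aldoc (0.85, SE 0.20, adjusted p = 0.029), with the hexokinase Hk2 at -0.46 (SE 0.12, adjusted p = 0.042). The median of the list was -0.06 in nose at 7 days and 0.03 in blood at 28 days, close to the -0.05 and -0.02 of all probe sets.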
